A study of Mus musculus with 9 samples.

Results

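Transforming growth factor beta (TGF-beta) is a secreted signal, and the 8 genes described here cover its ligands, its receptors and a matrix protein named for its induction. The ligands were Tgfb1, Tgfb2 and Tgfb3. The receptors and co-receptors were Tgfbr1, Tgfbr2, Tgfbr3 and Acvrl1, and the matrix gene was Tgfbi. They were picked as the entries of the deposited tables whose symbol equals one of these names, which finds 8 of the 21553 genes listed with counts. The set was chosen by name with earlier results of these libraries known, and which measured values prompted the choice is not given. Every contrast below is therefore treated as used in the choice. The p-values printed come from the fit over all genes and describe these libraries, without being independent evidence for the set.

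All libraries come from N2A, a mouse neuroblastoma cell line, which received pools of small interfering RNAs and was harvested 48 hours later. In the first experiment there was 1 library of a joint Mbnl1 and Mbnl2 knockdown, 1 of a Nacc1 knockdown and 1 of a control that received a non-targeting pool. The second experiment held 2 libraries of a Srrm4 knockdown, 2 of a Zfp871 knockdown and 2 of their own non-targeting control, with column letters a and b. Srrm4 and the Mbnl proteins regulate alternative splicing, Nacc1 encodes a BTB-domain regulator of transcription, and the product of Zfp871 is a zinc finger protein. Whether the 2 libraries of a group stem from separate cultures is not said in the labels, so the p-values measure only the spread between these libraries, which may be technical.

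The ligands are made as latent precursors that must be released from the extracellular matrix. Active ligand binds the type II receptor Tgfbr2, which recruits and phosphorylates the type I receptor Tgfbr1, and Tgfbr1 in turn phosphorylates Smad2 and Smad3. Tgfbr3, also called betaglycan, presents ligand to these kinases and is known above all for binding TGF-beta 2. Acvrl1, also called ALK1, is a type I receptor best known from endothelial cells that signals through Smad1 and Smad5. In the developing nervous system these signals act on the survival and differentiation of neurons.

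Library totals were 50086176 to 63715449 counts in the first experiment and 44186088 to 61159670 in the second. Levels are given in CPM, the counts of a gene scaled to the total of its library after adjustment by TMM, a normalization factor between libraries. In every knockdown the targeted genes lay below all control libraries of that experiment. Srrm4 had 28.3 and 26.1 CPM in the Srrm4 knockdown, against 66.8 and 96.7 CPM in control. It also stood at 44.9 and 53.7 CPM in the Zfp871 knockdown, below both control libraries. Zfp871 had 7.17 and 5.08 CPM in the Zfp871 knockdown, against 17.6 and 26.2 CPM in control. All 14 genes of a neuronal and neuroblastoma list were in the table, and they summed to 3274 to 3452 CPM in the first experiment. For the second experiment the sum was 3704 and 3707 CPM in the Srrm4 knockdown and 3610 and 3709 in the Zfp871 knockdown, against 4462 and 4127 CPM in control.

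The summed markers of other cell types lay far below the neuronal sum, and the epithelial sum was the highest of them. In the first experiment the glial sum was 7.58 to 7.81 CPM and the epithelial sum 35.2 to 40.5 CPM. Over the 9 libraries, 8 endothelial markers summed to 1.89 to 5.68 CPM, with Kdr and Cldn5 at 0 counts, 10 fibroblast and mesenchymal markers to 1.47 to 5.10 CPM, with Col3a1 and Twist1 at 0, and 8 macrophage and microglial markers to 0.324 to 1.8 CPM. The sum of 7 glial markers, with Aqp4 at 0, was 5.54 and 6.42 CPM in the Srrm4 knockdown and 4.33 and 4.23 in the Zfp871 knockdown, against 6.04 and 6.15 CPM in control. The sum of 6 epithelial markers was 37.1 and 31.9 CPM in the Srrm4 knockdown and 32.6 and 29.1 in the Zfp871 knockdown, against 28.7 and 25.1 CPM in control. In the second experiment the neuronal sum was thus lower and the epithelial sum higher in all 4 knockdown libraries than in both control libraries. The part of these sums in the results for the members was not tested.

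Of the receptor kinases that form the TGF-beta complex, Tgfbr1 was well detected and Tgfbr2 was not. Tgfbr1 was the most abundant of the receptors, at 9.48 to 18.5 cRPKM in the libraries of the first experiment. This is the authors' level per length and depth, corrected for mappable positions. Tgfbr2, the type II receptor that binds the ligand, had 2 counts in the Mbnl1 and Mbnl2 knockdown, 2 counts in the Srrm4 knockdown library a and 0 in the other 7 libraries. A count of 0 allows up to 3 counts, which is at most 0.0670 CPM in these libraries, so Tgfbr2 transcripts were at or near the limit of detection. Tgfbr2 did not reach the count minimum of any comparison, and the counts of members below are out of the 7 genes that did.

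Levels of different genes were set side by side per length, with the authors' mean cRPKM of each group in the second experiment. In control cells these means were 14.8 cRPKM for Tgfbr1, 6.14 for Tgfb2, 5.76 for Tgfbi, 5.37 for Tgfb3 and 4.55 for Tgfb1. Tgfb2, Tgfbi, Tgfb3 and Tgfb1 stood closer to each other than the control libraries of 1 gene did, which were at 12.3 and 23.6 CPM for Tgfb3 and at 12.6 and 6.61 CPM for Tgfb1. Acvrl1 and Tgfbr3 followed at 0.28 and 0.2 cRPKM. Their control libraries differed more than that, with 1.38 and 0.605 CPM for Acvrl1 and 1.58 and 0.855 CPM for Tgfbr3. In Zfp871 knockdown cells the authors' mean was 10.7 cRPKM for Tgfb3 and 9.9 for Tgfbr1, a difference smaller than that between the Tgfb3 libraries, and Tgfb2 was the lowest ligand at 1.77 cRPKM.

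**Figure D1:**
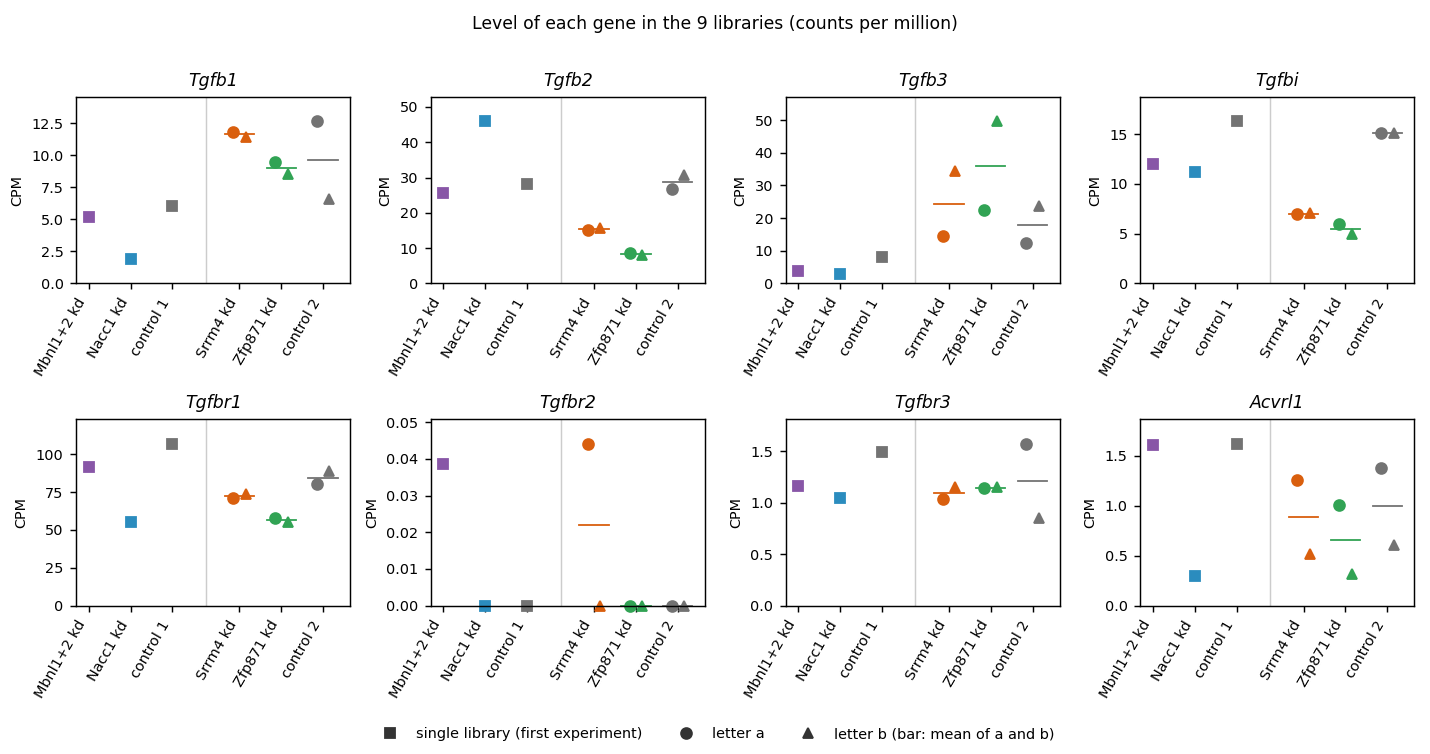
Level of each of the 8 genes in the 9 libraries, in CPM on axes that start at 0 and differ between genes, with knockdowns left of their control in each experiment. Squares are single libraries of the first experiment, circles and triangles the libraries a and b of the second, and short bars their mean; Tgfb2 and Tgfbi are lower in all 4 Srrm4 and Zfp871 knockdown libraries than in either control library, and Tgfb3 and Acvrl1 separate by letter.

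Tgfb2 and Tgfbi were the members with the lowest fold changes in the second experiment, and both fell in both knockdowns. Tgfb2 had 15 and 15.6 CPM in the Srrm4 knockdown libraries a and b and 8.51 and 8.14 in the Zfp871 knockdown, against 26.7 and 30.6 CPM in control. The 3 groups did not overlap, and the Zfp871 knockdown was the lowest. How many of all tested genes have groups without overlap was not counted, so nothing is read from it here or below. In counts, these libraries held 679 and 936 reads of Tgfb2 in the Srrm4 knockdown and 381 and 410 in the Zfp871 knockdown, against 1239 and 1469 in control.

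The log2 fold change of Tgfb2 was -0.91 ± 0.12 (SE) in the Srrm4 knockdown, 53.4% of control, with an adjusted p of 0.0250 by edgeR's quasi-likelihood test. In the Zfp871 knockdown it was -1.78 ± 0.13, 29.0% of control, with an adjusted p of 0.0192, and 2 of 12378 genes had a smaller p. The difference between the knockdowns was itself tested: Tgfb2 was lower in the Zfp871 than in the Srrm4 knockdown by a log2 fold change of -0.88 ± 0.12, with an adjusted p of 0.0149. In the authors' deposited table the log2 fold changes of Tgfb2 were -0.91 with an FDR of 0.000116 for Srrm4 and -1.77 with an FDR of 4.07e-16 for Zfp871.

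Tgfbi encodes a secreted adhesion protein that binds collagens and integrins. It had 6.96 and 7.09 CPM in the Srrm4 knockdown and 5.94 and 4.95 in the Zfp871 knockdown, against 15.1 and 15.1 CPM in control. All 4 knockdown libraries lay below both control libraries, which differed from each other by less than the knockdowns differed from them. The log2 fold change was -1.11 ± 0.15 in the Srrm4 knockdown, with an adjusted p of 0.0250, and -1.47 ± 0.15 in the Zfp871 knockdown, with an adjusted p of 0.0227, both by edgeR's quasi-likelihood test. Between the knockdowns the value was -0.37 ± 0.15 and did not pass, with an adjusted p of 0.171.

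Each of these calls was lost without 1 or another of the libraries. For the Srrm4 knockdown, the fit without any 1 library left Tgfb2 at -1.0 to -0.80 and Tgfbi at -1.12 to -1.09 on the log2 scale, but neither was called in any of those 6 fits, in which 0 to 180 genes were called in all. In the Zfp871 knockdown Tgfb2 lost its call without the library Zfp871 a, Zfp871 b or control b, and Tgfbi without either Zfp871 or either control library, at log2 fold changes of -1.87 to -1.68 and -1.61 to -1.34. Between the knockdowns, Tgfb2 lost its call without Srrm4 b, Zfp871 a or Zfp871 b, at -0.91 to -0.83.

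Sequence just upstream of both genes is shown because they moved in the same direction in both knockdowns. Each line holds the 250 bases before the start of the gene in RefSeq, 5′ to 3′ on the gene's strand, from build GRCm38.p6, and capitals mark the motifs found.
Tgfb2, chr1:186705990-186706239, minus strand: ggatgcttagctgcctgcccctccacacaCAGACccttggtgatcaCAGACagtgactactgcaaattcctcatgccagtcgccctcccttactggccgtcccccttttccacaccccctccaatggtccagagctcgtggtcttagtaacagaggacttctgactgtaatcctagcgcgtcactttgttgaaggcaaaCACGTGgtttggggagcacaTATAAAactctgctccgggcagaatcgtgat
Tgfbi, chr13:56609336-56609585, plus strand: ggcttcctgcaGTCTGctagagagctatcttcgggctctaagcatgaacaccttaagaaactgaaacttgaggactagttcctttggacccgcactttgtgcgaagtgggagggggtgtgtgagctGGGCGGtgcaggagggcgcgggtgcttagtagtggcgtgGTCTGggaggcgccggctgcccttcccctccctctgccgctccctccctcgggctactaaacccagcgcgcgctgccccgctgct
The motifs searched, on both strands, were TATAAA (the TATA box), TGACGTCA (the cAMP response element), CACGTG (an E-box), GGGCGG (a GC box), TGANTCA (the AP-1 site) and CAGAC (the Smad box), and no matches overlapped in these windows. The Tgfb2 window holds TATAAA 31 bases and CACGTG 51 bases before the start, and CAGAC at 204 and 221 bases. The Tgfbi window holds GGGCGG at 124 bases and CAGAC on the opposite strand at 85 and 239 bases. Over the 32851 RefSeq promoter windows of this length, 12.4% hold TATAAA, 1.55% TGACGTCA, 6.02% CACGTG, 32.7% GGGCGG, 6.75% TGANTCA and 42.2% CAGAC. The matches shared by the windows of Tgfb2 and Tgfbi are thus of a motif that is common among promoters. Of the 8 genes, 5 had a window in the table.

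Among the receptors, Tgfbr1 fell in the Zfp871 knockdown. It had 58.0 and 55.4 CPM there and 71.3 and 73.5 in the Srrm4 knockdown, against 80.0 and 88.6 CPM in control. The 3 groups did not overlap, and the share of all tested genes that separate in this way was not counted. The log2 fold change was -0.57 ± 0.09 in the Zfp871 knockdown, 67.2% of control, with an adjusted p of 0.0363 by edgeR's quasi-likelihood test. In the Srrm4 knockdown it was -0.22 ± 0.09 and did not pass, with an adjusted p of 0.202, and between the knockdowns it was -0.35 ± 0.09, with an adjusted p of 0.0589. Without any 1 of the 6 libraries the Zfp871 value was -0.63 to -0.50 and was not called in any of these fits. The authors' deposited table gives Tgfbr1 an FDR of 0.00177 for Zfp871 and 0.403 for Srrm4.

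Tgfb3 had its highest mean in the Zfp871 knockdown, but library b was above library a in every group. It had 14.5 and 34.4 CPM in the Srrm4 knockdown libraries a and b and 22.5 and 49.6 in the Zfp871 knockdown, against 12.3 and 23.6 CPM in control. Library b exceeded library a 2.37-fold in the Srrm4 knockdown, 2.21-fold in the Zfp871 knockdown and 1.92-fold in control. Over all 12378 genes, 2.88% in the Srrm4 knockdown, 2.30% in the Zfp871 knockdown and 5.99% in control differed at least as much between letters. The groups overlapped in both comparisons with control.

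The log2 fold change of Tgfb3 was 1.01 ± 0.55 in the Zfp871 knockdown and 0.45 ± 0.55 in the Srrm4 knockdown, and neither passed, with adjusted p values of 0.350 and 0.662 by edgeR's quasi-likelihood test. Within a letter, the Zfp871 knockdown exceeded control by 0.87 in the a libraries and 1.07 in the b libraries on the log2 scale, and the Srrm4 knockdown by 0.23 and 0.54. No source used here says what libraries of 1 letter share, such as a day or an extraction kit. In a fit with the letter as a block, given among the alternatives, Tgfb3 was called in both comparisons.

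**Figure D2:**
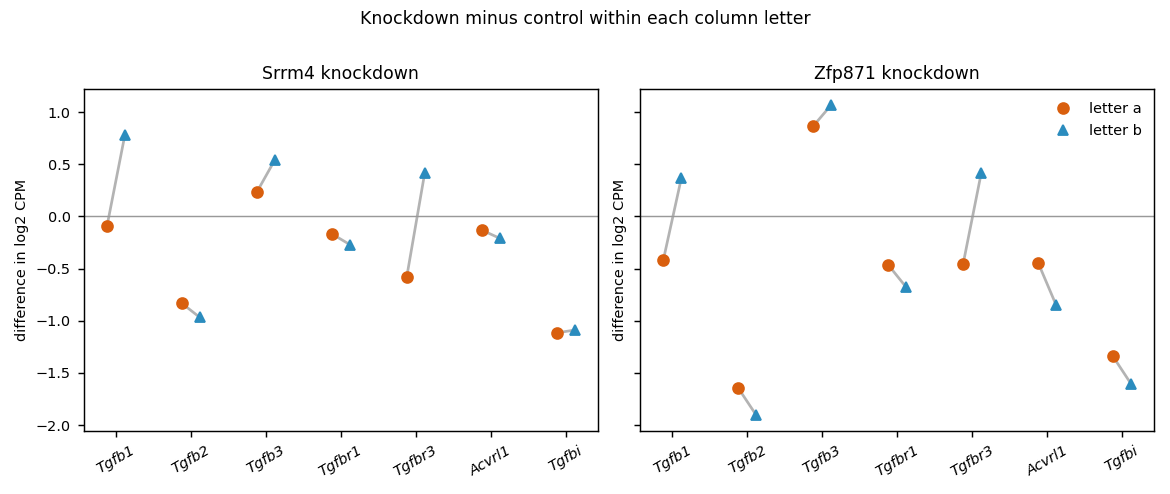
Knockdown minus control in log2 CPM within the libraries of letter a (circles) and of letter b (triangles) for the 7 genes with enough counts, Srrm4 knockdown left and Zfp871 knockdown right. Tgfb2, Tgfbi, Tgfbr1 and Acvrl1 lie below 0 within both letters and Tgfb3 above 0, while Tgfb1 and Tgfbr3 have opposite signs in a and b.

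Tgfb1 was higher in library a than in library b of the control, and neither knockdown passed the test. It had 11.8 and 11.4 CPM in the Srrm4 knockdown and 9.47 and 8.56 in the Zfp871 knockdown, against 12.6 and 6.61 CPM in control. Both knockdowns lay between the control libraries. The log2 fold changes were 0.27 ± 0.29 for Srrm4 and -0.09 ± 0.29 for Zfp871, with adjusted p values of 0.613 and 0.891 by edgeR.

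Acvrl1 was scarce and lower in library b of every group. It had 57 and 31 counts in the Srrm4 knockdown and 45 and 16 in the Zfp871 knockdown, against 64 and 29 in control. In CPM, library b had 0.43 of the level of library a in the Srrm4 knockdown, 0.34 in the Zfp871 knockdown and 0.45 in control. The summed endothelial markers differed the same way by letter, with 5.15 and 2.92 CPM in the Srrm4 and 4.78 and 1.89 CPM in the Zfp871 knockdown, against 5.68 and 2.04 CPM in control; 4 of these 8 markers had at most 3 counts in any library, and Kdr and Cldn5 had none. The letter pattern was not particular to endothelial markers. Fibroblast and mesenchymal markers summed to 2.61 and 1.69 CPM in the Srrm4 and 1.85 and 1.47 CPM in the Zfp871 knockdown, against 2.16 and 2.04 CPM in control. The epithelial sum was also higher in library a of every group, while the glial and the macrophage and microglial sums were not. The part of these markers in the Acvrl1 values was not tested, and in bulk RNA fewer cells of a type and less RNA per cell cannot be told apart. The log2 fold changes of Acvrl1 were -0.17 ± 0.70 for Srrm4 and -0.59 ± 0.72 for Zfp871, with adjusted p values of 0.906 and 0.687 by edgeR.

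Tgfbr3 was near the lower end of what these libraries resolve. It had 47 and 69 counts in the Srrm4 knockdown and 51 and 58 in the Zfp871 knockdown, against 73 and 41 in control. Its log2 fold changes were -0.15 ± 0.35 and -0.08 ± 0.35 for Srrm4 and Zfp871, with adjusted p values of 0.836 and 0.919 by edgeR. Library b had 0.55 of the level of library a in control, 1.11 in the Srrm4 knockdown and 1.01 in the Zfp871 knockdown. A change in Tgfbr3 was not detectable at these counts and this spread between libraries, which does not show that there was none.

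In all, 2 of 7 members were called in the Srrm4 knockdown, both lower, where 4.7% of all tested genes were called and 3.29% were called lower. In the Zfp871 knockdown 3 of 7 were called, each lower, against a background of 2.89% called and 2.14% called lower. Between the Zfp871 and Srrm4 knockdowns 1 of 7 was called, lower, against 11.1% and 5.57%. The median log2 fold change of the 7 members was -0.17 for Srrm4, -0.57 for Zfp871 and -0.37 between the knockdowns, beside medians of -4.65e-05, -0.01 and -0.01 over all tested genes. The comparisons with control share the 2 control libraries, and since the members were chosen with these contrasts known, nothing is read from their counts.

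**Figure D3:**
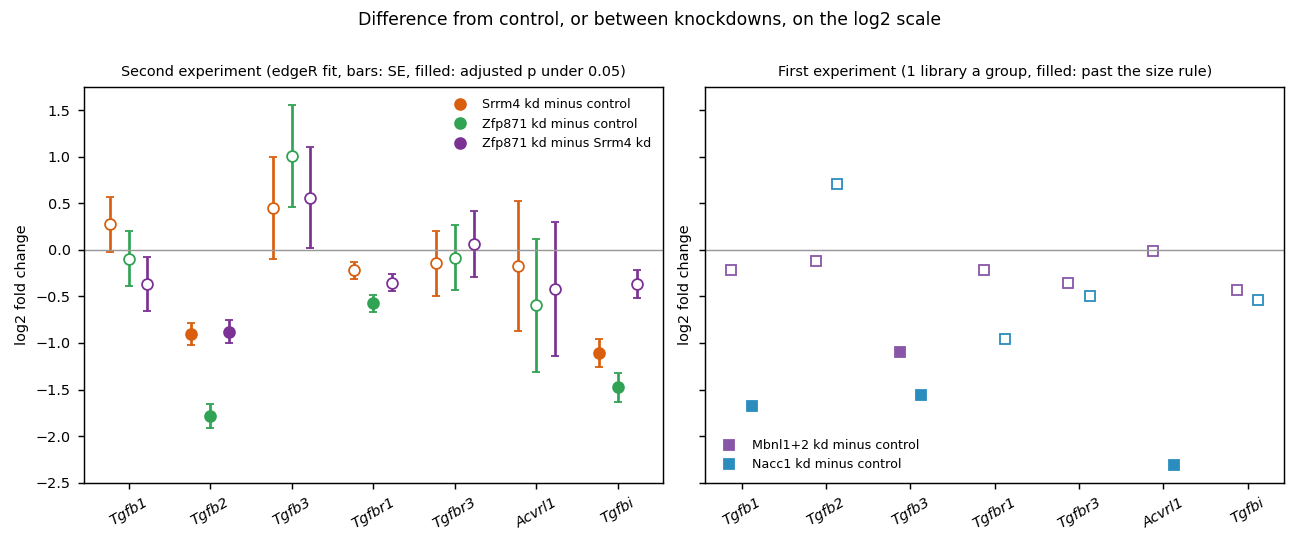
Log2 fold changes of the 7 genes with enough counts. On the left are the fitted values of the second experiment with their SE, filled where the adjusted p was under 0.05; on the right are the values of the first experiment, which has 1 library a group and no error, filled where they passed the size rule. Tgfb2 and Tgfbi were called lower in both the Srrm4 and Zfp871 knockdowns, and Acvrl1, Tgfb1 and Tgfb3 passed the size rule in the Nacc1 knockdown.

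In the first experiment, the members with the lowest fold changes in the Nacc1 knockdown were Acvrl1, Tgfb1 and Tgfb3, with 1 library a group and hence no replicate check. Acvrl1 had 0.30 CPM in the Nacc1 knockdown (18 counts, 95% Poisson interval 0.178 to 0.474), against 1.62 CPM in control (102 counts, 1.32 to 1.97). Tgfb1 had 1.88 CPM (1.55 to 2.26) in the Nacc1 knockdown, against 6.08 CPM (5.48 to 6.72) in control. Tgfb3 had 2.77 CPM (2.36 to 3.22) in the Nacc1 knockdown, against 8.21 CPM (7.51 to 8.95) in control. These intervals cover counting error only, and those of the knockdown and control libraries did not overlap for these genes. Libraries of 1 group also differed in the second experiment. There, control library b had 0.45 of the level of library a for Acvrl1, 0.53 for Tgfb1 and 1.92 for Tgfb3. For Tgfb1 the knockdown libraries were closer, at 0.97 (Srrm4) and 0.90 (Zfp871).

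The log2 fold changes were -2.31 for Acvrl1, -1.67 for Tgfb1 and -1.56 for Tgfb3, and these genes passed the size rule, which asks for 50 counts or more in either library and a change of 1 or more on the log2 scale in either direction. Acvrl1 reached the 50 counts through the control library alone. Of the other members, Tgfbr1 stood at 9.48 cRPKM in the Nacc1 knockdown, against 18.5 cRPKM in control, and its log2 fold change of -0.96 was just short of the limit. Tgfb2 was higher, at 45.9 CPM in the Nacc1 knockdown, against 28.1 CPM in control, with a log2 fold change of 0.71. Tgfbi had a log2 fold change of -0.54 and Tgfbr3 of -0.50. Endothelial markers summed to 3.37 CPM in the Nacc1 knockdown, against 4.47 CPM in control. Fibroblast and mesenchymal markers summed to 1.97 CPM in that knockdown, against 4.12 CPM in control. The glial sum was 7.58 CPM in the Nacc1 knockdown, against 7.63 CPM in control, and the epithelial sum 35.2 CPM, against 38.4 CPM. The macrophage and microglial sum went the other way and was higher in the Nacc1 knockdown than in control. The part of these sums in the values of Acvrl1, Tgfb1 and Tgfb3 was not tested.

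After joint knockdown of Mbnl1 and Mbnl2, Tgfb3 alone passed the size rule. It had 3.82 CPM (3.30 to 4.39) in the knockdown, against 8.21 CPM (7.51 to 8.95) in control, a log2 fold change of -1.10. In the second experiment, libraries a and b of the same group differed in Tgfb3 by 0.94 to 1.25 on the log2 scale. The remaining 6 genes had values of -0.43 for Tgfbi, -0.35 for Tgfbr3, -0.22 for Tgfb1 and for Tgfbr1, -0.13 for Tgfb2 and -0.01 for Acvrl1. Thus 3 of 7 members passed in the Nacc1 knockdown, each lower, where 3.38% of genes with enough counts passed and 2.97% were lower, and 1 of 7 in the Mbnl1 and Mbnl2 knockdown, where 1.02% passed and 0.259% were lower. Both knockdowns were set against the same control library.

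The genes whose level followed a member most closely over the 9 libraries were found by Pearson's r of log2 CPM, centred within each experiment, among 11554 genes. For Tgfb2 these were Usp10 (r = 0.980), Rbfox1 (0.978) and Flrt1 (0.977). Tgfbi came at rank 274 for Tgfb2, with an r of 0.825. The r of Tgfb2 was 0.35 with Tgfbr1, -0.03 with Acvrl1, -0.14 with Tgfbr3, -0.30 with Tgfb1 and -0.54 with Tgfb3. The closest genes for Tgfbi were Nsg2 (0.986), Arhgap26 (0.980) and Apba1 (0.972). For Tgfb3 the closest genes were Kcnk3 (0.995), Tacc3 (0.971) and Dock2 (0.971), and for Acvrl1 they were AI597468 (0.988), Rab13 (0.985) and Dagla (0.978). The libraries share their controls, depth and letters, and these values describe the 9 libraries only.

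Further genes of the pathway were read from lists of other superfamily ligands, other receptors and co-receptors, latency and activation factors, extracellular antagonists, Smads with their intracellular regulators, and textbook transcriptional targets. Of 109 listed genes 107 were in the table and 71 were tested in the second experiment. In the Srrm4 knockdown 1 of 71 rose and 4 fell, with a median log2 fold change of -0.04. That is 7.04% of the listed genes, beside 4.7% of all genes. The gene that rose was Col4a1, a basement membrane collagen and TGF-beta target, at 1.77 ± 0.16. Those that fell were Ltbp3, which binds latent TGF-beta, at -1.16 ± 0.14, the ligand Gdf11 at -1.06 ± 0.12, endoglin (Eng), the co-receptor of Acvrl1, at -0.98 ± 0.15, and Smad1 at -0.63 ± 0.09. Adjusted p values of these 5 genes were 0.0184 to 0.0294 by edgeR's quasi-likelihood test. Without Srrm4 library a, Col4a1, Ltbp3 and Gdf11 were still called, and without any 1 of the other 5 libraries none was, at 1.55 to 1.97 for Col4a1 and -1.34 to -1.0 for Ltbp3.

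In the Zfp871 knockdown 1 of 71 rose and 1 fell, with a median of -0.05. That is 2.82% of the listed genes, beside 2.89% of all genes. Col4a1 rose by 1.44 ± 0.16 and fibronectin, Fn1, had a log2 fold change of -1.18 ± 0.10, with adjusted p values of 0.0227 and 0.0192 by edgeR. Fn1 lost its call without Zfp871 library a or b or control b, at -1.27 to -1.08, and Col4a1 without these or control a, at 1.34 to 1.55. Directly between the Zfp871 and Srrm4 knockdowns, 7 genes were higher in the Zfp871 knockdown and 3 lower, 14.1% of the listed genes beside 11.1% of all genes. The higher ones were Id3, a Smad1 and Smad5 target, at 1.17, Gdf11 at 1.01, Ltbp3 at 0.83, Eng at 0.82, the protease Furin, which cleaves the ligand precursors, at 0.72, the receptor-binding inhibitor Strap at 0.61 and Smad1 at 0.45. The lower ones were Fn1 at -0.75, the Smad repressor Skil at -0.49 and the integrin gene Itgb5 at -0.38. The adjusted p values of these 10 genes were 0.0112 to 0.0439 by edgeR's quasi-likelihood test. All 10 calls were lost without Srrm4 b, Zfp871 a or Zfp871 b, where edgeR called 0 genes in all (2245 to 2720 at an unadjusted p under 0.05). No Smad2, Smad3, Smad4 or Smad7 call was made in any of these contrasts.

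By list, the Srrm4 knockdown gave 1 call lower of 7 tested genes among other ligands, 1 lower of 10 among other receptors, 1 lower of 7 among latency factors, 0 of 5 among antagonists, 1 lower of 22 among Smads and their regulators and 1 higher of 24 among targets. In the Zfp871 knockdown both calls were among the 24 targets, 1 in each direction, and the median of the targets was 0.14, beside -0.20 in the Srrm4 knockdown. Acta2, smooth muscle actin and a target of the pathway, was not called in either: it had 47 and 378 counts in the Srrm4 and 1303 and 5113 in the Zfp871 knockdown, against 164 and 684 counts in control, with a higher count in b than in a in every group.

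**Figure D4:**
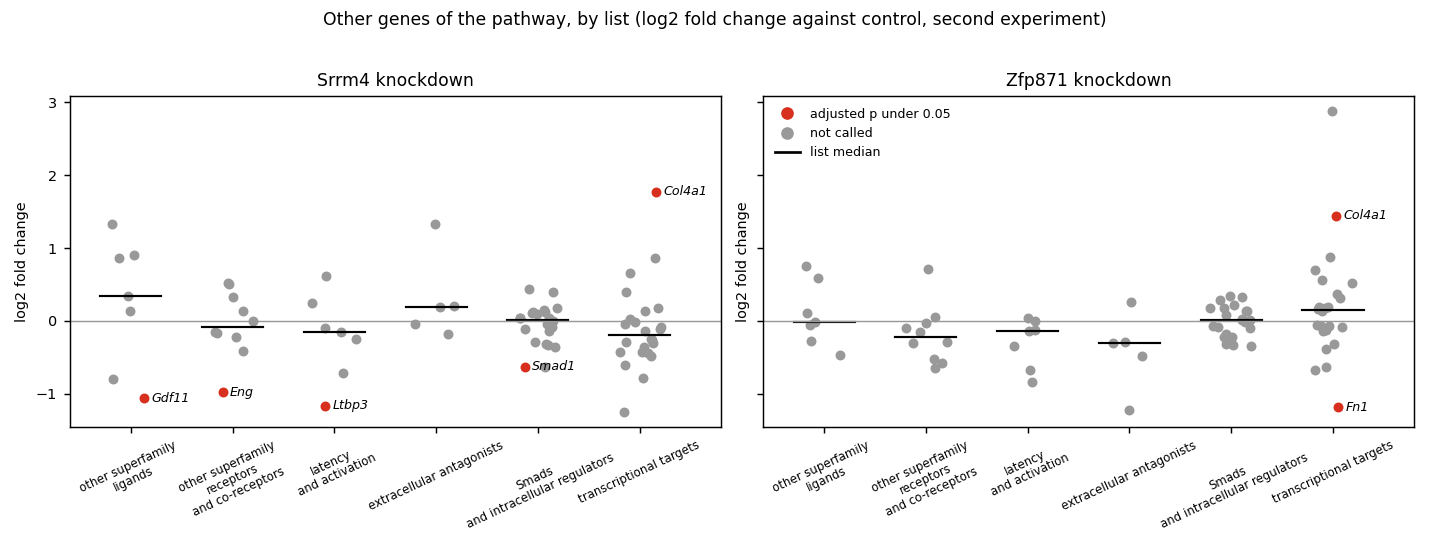
Log2 fold change against control of the 71 tested pathway genes by list, Srrm4 knockdown left and Zfp871 knockdown right, with a horizontal bar at each list's median and called genes named. Calls were few in each list, and Col4a1 was called higher in both knockdowns; the highest grey point on the right is Acta2, which did not pass the test.

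In the first experiment 66 listed genes had enough counts in the Nacc1 comparison, and 5 passed the size rule, each lower, which is 7.58% beside 3.38% of all genes, of which most were also lower. They included Fstl3, a secreted antagonist of activins, at -1.38, Acta2 at -1.36, Ltbp3 at -1.11 and Bhlhe40 at -1.08. Of 67 in the Mbnl1 and Mbnl2 comparison, Acta2 passed at -3.06 and Ltbp2, an extracellular matrix relative of the latency proteins, at 1.19, which is 2.99% beside 1.02% of all genes. The medians over all listed genes were -0.05 and -0.12.

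Splicing of the members was read from 109 events of the first and 110 of the second experiment, of which 50 and 54 had at least 10 reads in every library. No event of Tgfbr2, Tgfbr3 or Acvrl1 reached that depth. Most measured events were near full inclusion or full skipping: a PSI (percent spliced in) between 5 and 95 in at least 1 library was found for 3 of 14 cassette exons, 2 of 35 introns and 3 of 5 alternative splice sites in the second experiment. The pair of segments with a PSI between 5 and 95 in every library lies in Tgfb2 and Tgfbr1, and both have a length that is a multiple of 3. A further alternative acceptor of Tgfb2, which adds 115 nt, was used at 79.3% to 100% in the second experiment, from 15 to 48 reads a library.

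The Tgfb2 segment is an 84-nt coding cassette exon, 28 codons, at chr1:188514600-188514683 in mm9, the build of the files. The Tgfbr1 segment is 12 nt, 4 codons, between alternative acceptors at chr4:47406119-47406130 in mm9. Their sequences are shown because these are the segments by which transcripts of these members differ. They were read from GRCm38 transcripts that match in length and in the distance to the neighbouring exons, with the segment in capitals and 24 nt of the flanking exons in lower case.
Tgfb2, chr1:186690721-186690804, minus strand: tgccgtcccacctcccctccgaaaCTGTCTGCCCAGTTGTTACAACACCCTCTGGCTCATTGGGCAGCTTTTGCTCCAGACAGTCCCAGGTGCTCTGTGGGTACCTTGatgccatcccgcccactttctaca
Tgfbr1, chr4:47393247-47393258, plus strand: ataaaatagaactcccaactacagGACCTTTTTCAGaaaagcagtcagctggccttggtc

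The Tgfb2 exon was mostly skipped in every library. Its PSI was 9.97% and 7.04% in the Srrm4 knockdown and 7.46% and 5.94% in the Zfp871 knockdown, against 6.70% and 8.88% in control, from 26 to 133 reads a library. In the first experiment it was 8.54% in the Mbnl1 and Mbnl2 knockdown and 6.18% in the Nacc1 knockdown, against 8.85% in control. The exact binomial intervals of all libraries overlapped, the widest being 0.946% to 25.1% in the Zfp871 library a. The PSI difference was 0.718 points for Srrm4 and -1.09 points for Zfp871, each with an adjusted p of 1 by edgeR's quasi-likelihood test, so the level of Tgfb2 differed between groups while a difference in this exon was not detectable at this depth.

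The Tgfbr1 segment was included in close to equal shares with its exclusion. Its PSI was 39.7% and 51.5% in the Srrm4 knockdown and 54.8% and 63.8% in the Zfp871 knockdown, against 51.7% and 53.7% in control. In the first experiment it was 56.2% in the Mbnl1 and Mbnl2 knockdown and 59.7% in the Nacc1 knockdown, against 52.3% in control. In the second experiment both Srrm4 knockdown libraries lay below both control libraries and both Zfp871 knockdown libraries above them. The nearest libraries were Srrm4 b and control a, at 51.5% and 51.7%, and Zfp871 a and control b, at 54.8% and 53.7%. How many other events are ordered this way was not counted, so nothing is read from the order. Every knockdown interval overlapped those of the control libraries of its own experiment. Between the knockdowns, the interval of Zfp871 library b, 52.2% to 74.2%, did not overlap that of Srrm4 library a, 28.8% to 51.5%. The event, an alternative acceptor, was not part of the exon test.

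**Figure D5:**
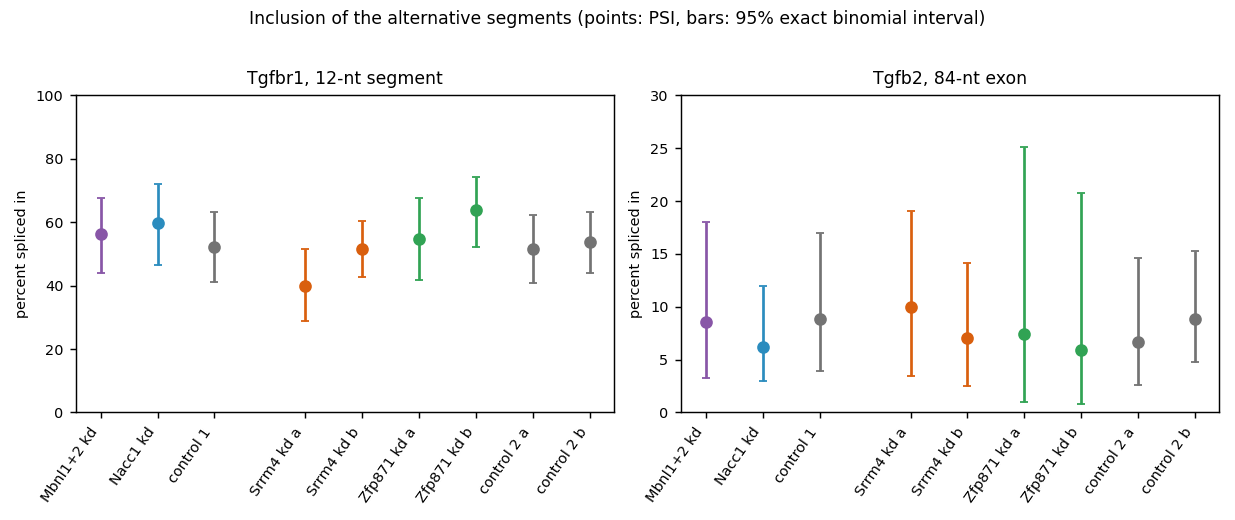
Percent spliced in of the Tgfbr1 12-nt segment (left, axis 0 to 100) and of the Tgfb2 84-nt exon (right, axis 0 to 30) in each library, with 95% exact binomial intervals that cover counting error only. Knockdowns stand left of their control, and the intervals of knockdown and control libraries overlap for both segments.

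Of the remaining cassette exons, a 132-nt exon of Tgfbr1 was included at 0% to 4.16% over both experiments, a 3-nt exon of Tgfbr1 at 0% to 3.41% and a 67-nt exon of Tgfb3 at 0% to 6.87% in the second experiment. An 80-nt exon of Tgfbi was included at 93.3% to 100%. In all, 9 cassette exons of the members entered the exon test, and edgeR's quasi-likelihood test called 0 of them in either knockdown, with 0 of 9 at an unadjusted p under 0.05. The likelihood ratio test, which also called 0 of 9, gave a lowest adjusted p of 0.220. Over all 20266 exons, 0.123% were called in the Srrm4 knockdown and 0% in the Zfp871 knockdown, where 946 exons had an unadjusted p under 0.05 and the likelihood ratio test called 185. The authors' deposited splicing tables list 109 events of the members, of which 50 to 60 carry a mark in a given knockdown, and 0 of those are marked as differential in any of the 4 knockdowns.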

How the data were processed

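Polyadenylated RNA of 9 libraries was sequenced, per the labels. Counts and fold changes were read from the deposited gene tables, and exon reads from the deposited primary vast-tools tables. The authors' counts of reads for each gene, raw per the file headers, were the base of every level in CPM (counts scaled to the TMM-adjusted library total) and of every test. The deposited cRPKM values, RPKM corrected for mappable positions, were used as levels per length, by library in the first experiment and as the authors' group means in the second. In the authors' filtered splicing tables PSI is in percent, per the file headers, and the gene tables hold the authors' deposited log2 fold changes and, for the second experiment, FDR values, which are adjusted p-values. The submitters' processing notes name the build mm9, CASAVA 1.8 and edgeR. The aligner, the counting program and strandedness were not given in the sources used here, so reads of a gene and of an overlapping antisense gene cannot be told apart. A further 1114 entries without counts were left out, and 17 columns of per-library values were not used.

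The 6 libraries of the second experiment were fitted together by edgeR 4.0.16 under R 4.3.3, with TMM factors, the filterByExpr filter and the quasi-likelihood test, and p-values were adjusted by Benjamini-Hochberg over 12378 genes. The labels number the replicates 1 and 2 and the columns carry the letters a and b, with nothing that ties one to the other or says what they share. The main fit therefore has no block. With 1 library a group, the first experiment has no test. There a gene passed a size rule if either library had 50 counts or more and the log2 fold change (TMM, prior count 2) was 1 or more in either direction. Cassette exons entered with 10 or more reads in all 6 libraries and a PSI of 2 to 98 in any of them. They were tested on inclusion and exclusion reads with edgeR and called at an adjusted p under 0.05 with a PSI difference of at least 10 points. Intervals are 95% exact Poisson (counts) or Clopper-Pearson (PSI) intervals and cover counting error only: without molecular identifiers, reads are not independent molecules. Both fits were also run on simulated data, in which libraries were drawn independently and without a letter effect. Those runs therefore do not show how the fits behave at the spread of these libraries. The alternatives were DESeq2 1.42.0, other size factors, other filters, a replicate block, fewer libraries and leaving out each library. The 8 genes and the pathway lists were chosen with earlier results of these data known. All 8 genes are named, and of the pathway lists every gene that was called or passed the size rule, up to 10 in a comparison, except 1 gene that is not reported here. For the 4 members with the largest fold change in the second experiment, the 3 genes of most similar pattern are named.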

Additional observations from a re-analysis of the deposited data

How the results depend on the processing

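Counts of called genes depended on the fit far more than the fold changes of Tgfb2, Tgfbi and Tgfbr1 did. The values of Tgfb1, Tgfb3, Tgfbr3 and Acvrl1 changed sign in some fits, as given below. For the Srrm4 knockdown 582 genes were called, against 1747 with DESeq2, 4565 with the column letter as a replicate block, 0 with only the 4 libraries of the comparison (2693 at an unadjusted p under 0.05) and 0 to 180 without 1 library. For the Zfp871 knockdown 358 genes were called, against 1351 with DESeq2, 3854 with the block, 178 with 4 libraries and 0 to 211 without 1 library. Between the knockdowns the counts were 1374, 2422 with DESeq2, 5191 with the block and 0 to 1179 without 1 library. Where a fit without 1 library called 0 genes, 1461 to 2720 had an unadjusted p under 0.05. A group left with 1 library was assumed to vary like the others. With at least 10 counts in place of 50, 350 genes passed the size rule in the Mbnl1 and Mbnl2 knockdown, against 118, and 645 in the Nacc1 knockdown, against 391. Exons called in the Srrm4 knockdown were 25, 16 with at least 20 reads, 282 by the likelihood ratio test and 0 to 1 without 1 library. In the Zfp871 knockdown they were 0, 185 by the likelihood ratio test and 1 with the block.

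Tgfb2 and Tgfbi in the Srrm4 knockdown, and Tgfbr1 in the Zfp871 knockdown, also lost their calls with only the 4 libraries of the comparison, at -0.91, -1.11 and -0.57. No call of a member was lost with DESeq2, other size factors, no filter on low counts or the block. With the block Tgfb3 was called at 0.40 (Srrm4), 0.98 (Zfp871) and 0.58 (between the knockdowns), with adjusted p values of 0.00439, 6.14e-07 and 0.000111. Tgfbr1 was then also called for Srrm4 (-0.22) and between the knockdowns (-0.35, and by DESeq2), as was Tgfbi between the knockdowns (-0.37). Libraries of the same letter deviated from their group means together, with r of 0.637, 0.749 and 0.662 between groups over 12378 genes. With 2 letters and no source for what they share, this is a hint from the data, not a pairing in the design.

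Values that did not pass the test changed sign in some fits. Without 1 library, the Srrm4 values were -0.12 to 0.81 for Tgfb1, -0.31 to 0.99 for Tgfb3, -0.52 to 0.36 for Tgfbr3 and -0.93 to 0.54 for Acvrl1. The Zfp871 values were -0.49 to 0.46 for Tgfb1, -0.46 to 0.43 for Tgfbr3 and -1.63 to 0.13 for Acvrl1. Between the knockdowns they were -0.10 to 1.31 for Tgfb3, -0.0087 to 0.14 for Tgfbr3 and -1.46 to 0.34 for Acvrl1. Within 1 letter, a comparison added after the data were seen, signs turned for Tgfb1 (Srrm4, a: -0.10, Zfp871, b: 0.37) and Tgfbr3 (Srrm4 and Zfp871, b: 0.41, between the knockdowns, b: -0.0014). The causes were not tested. Acvrl1, Tgfbr3 and Tgfbr2 had at most 102 counts in any library. For Acvrl1 and Tgfbr3 the Poisson intervals of control libraries a and b did not overlap, so these differed by more than counting error.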
